A study of Danio rerio with 18 samples.

Results

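The 43 gene IDs described here belong to genes of the cell cycle and of DNA replication. They were taken from a list of 42 gene symbols, matched to the deposited counts without regard to letter case, and 41 of the 42 symbols have an ID among the 28298 IDs of the count table. The symbols mcm6 and rrm2 each stand for 2 IDs, birc5a was matched through the shared name BIRC5, and ube2c was not analysed here. The list was divided into a replication group of 18 IDs (the mcm, orc and rrm genes, cdc6, cdc45, cdt1, gmnn and pcna) and a mitosis group of 25 IDs. The mitosis group also holds ccnd1, ccne1, ccne2 and cdk2, which act at the entry into S phase.

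The libraries come from a study of zebrafish cardiomyocytes during heart development, in which embryo cells were sorted by FACS on GFP and the RNA of both fractions was sequenced. Wild-type cells were taken at 24, 48 and 72 hours after fertilization (hpf), and cells of 3 further genetic backgrounds, named gata5, tbx5 and hand2, at the last of these stages. A condition holds 3 libraries, 2 of GFP-positive and 1 of GFP-negative cells, so that the 6 conditions give 18 libraries. The labels give neither the allele of a background nor the reporter behind GFP, so the sorted cells are known only by their GFP status, and nothing says that replicates 1 and 2 of a group came from separate pools of embryos. p-values then measure the spread between these libraries, which may be technical.

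A dividing cell first licenses its replication origins: ORC, CDC6 and CDT1 load the ring of MCM2 to MCM7 proteins onto DNA, and geminin blocks CDT1 once S phase has begun. D-type and E-type cyclins drive entry into S phase, cyclin A and cyclin B with CDK1 drive the passage into mitosis, and aurora and polo-like kinases, checkpoint kinases, kinesins and centromere proteins then build the spindle and separate the chromosomes. Transcripts of the licensing genes are made mainly around the start of S phase and those of the mitotic genes mainly in G2 and mitosis. In the zebrafish heart tube, early cardiomyocytes are added from surrounding progenitors, and cardiomyocytes within the tube divide later and in places.

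Library totals ran from 5705157 to 32141901 counts, and 3 counts corresponded to 0.0933 to 0.397 CPM (counts scaled by TMM to a common library size, the scale of all levels given here). HAND2 stood at 0 to 2.55 CPM in the 3 hand2 libraries against 10.7 to 122 in the other 15. GATA5 in the 3 gata5 libraries (13.7 to 16.6 CPM) and TBX5 in the 3 tbx5 libraries (4.53 to 15.6) lay inside the range of the other libraries, so these transcripts do not check those 2 labels. The summed level of 10 IDs of cardiomyocyte genes was 105 to 3375 CPM in the GFP-positive libraries and 44.8 to 142 CPM in the GFP-negative ones. Replicate 2 of the gata5 GFP-positive libraries, at 105 CPM, lay inside the GFP-negative range of this sum, and 2 of its 10 cardiomyocyte IDs were at 0. actc1a alone stood at 36.1 to 126 CPM in GFP-negative libraries. In cmlc1 (14.6 against 3.03 CPM) and nppa (2.07 against 0.0954 CPM) the lowest GFP-positive library lay above the highest GFP-negative one. The same order held in TNNI1, myh6 (ENSDARG00000090637) and TNNT2 (ENSDARG00000020610), and not in the other IDs.

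**Figure D1:**
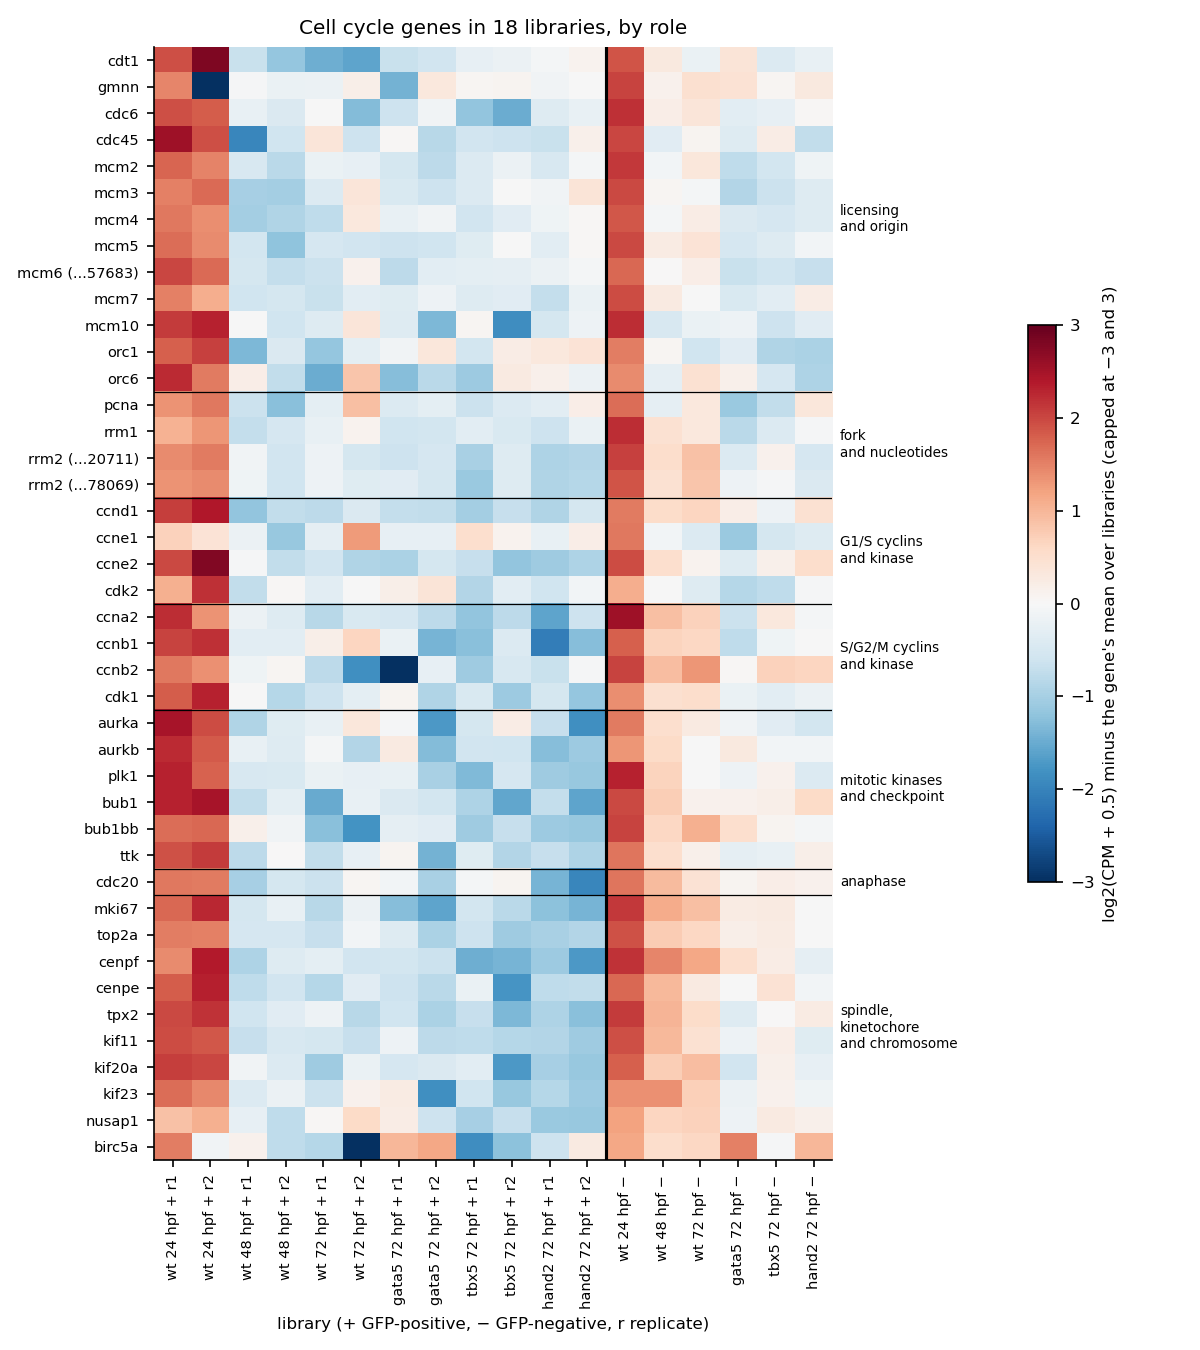
Levels of 42 cell cycle gene IDs (rows, by role) in 18 libraries (columns, GFP-positive left of the vertical line). Colour is log2(CPM + 0.5) minus the mean of the gene over libraries, capped at −3 and 3, and the second mcm6 ID, with next to no counts, is left out. Both 24 hpf GFP-positive columns and the 24 hpf GFP-negative column are red in nearly all rows, and the GFP-negative columns at 48 and 72 hpf are redder in the lower, mitotic rows than the GFP-positive ones.

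The first comparison concerned the change with stage in wild-type GFP-positive cells. Between 24 and 48 hpf transcripts of the replication and mitosis groups fell together. Of the 43 IDs, 37 were lower at 48 hpf and 0 were higher (edgeR quasi-likelihood test over all genes, Benjamini-Hochberg adjusted p under 0.05, n = 2 against 2), where 4.29% of all genes tested were called lower and 9.06% higher (13.4% in all). They were 15 of 18 replication IDs and 22 of 25 mitosis IDs, with median log2 fold changes of −2.37 and −2.42, against a median of 0.145 over all genes. In bulk RNA, fewer dividing cells and less of these transcripts per cell cannot be told apart.

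Among the licensing and origin genes, cdt1 (ENSDARG00000051854), the factor that loads the MCM ring, held 55.8 and 102 CPM at 24 hpf, 8.82 and 6.09 CPM at 48 hpf and 4.81 and 4.39 CPM at 72 hpf. The 3 stages did not overlap, and cdt1 fell 10.9-fold between 24 and 48 hpf (log2 fold change −3.44 ± 0.50 SE, edgeR adjusted p = 0.000273). cdc45 (ENSDARG00000043720), which joins the MCM ring to form the active helicase, held 65.8 and 43.2 CPM at 24 hpf against 2.45 and 6.97 CPM at 48 hpf. It fell by 3.57 ± 0.71 on the log2 scale (edgeR adjusted p = 0.00302). orc1 (ENSDARG00000039217), the largest subunit of the origin recognition complex, held 65.1 and 77.9 CPM at 24 hpf against 6.93 and 13.5 CPM at 48 hpf (−2.84 ± 0.51).

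The 6 subunits of the MCM helicase ring fell by similar amounts. mcm5 (ENSDARG00000019507) held 390 and 327 CPM at 24 hpf, 83.2 and 52.5 CPM at 48 hpf and 86.6 and 82.0 CPM at 72 hpf, with both 24 hpf libraries above all 10 later GFP-positive ones. Its log2 fold change from 24 to 48 hpf was −2.44 ± 0.31 (edgeR adjusted p = 0.000103). The other subunits lay between −1.93 (mcm7) and −2.68 (mcm3). mcm10, which helps to activate the helicase, fell from 42.2 and 48.9 CPM to 9.38 and 6.04 CPM, and cdc6, the loader of the ring, fell by 2.28. Geminin (gmnn) was not called: its 24 hpf libraries disagreed, with 16.2 CPM in replicate 1 and none in replicate 2, a library in which 3 counts make 0.157 CPM. orc6 was not called either (log2 −2.29 ± 1.04, edgeR adjusted p = 0.187). The second mcm6 ID, at 0 to 2.09 CPM over the 18 libraries, was too low for a fold change.

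Of the genes that act at the fork or supply nucleotides, all 4 IDs fell. pcna (ENSDARG00000054155), the sliding clamp of the DNA polymerases, held 651 and 768 CPM at 24 hpf, 163 and 107 CPM at 48 hpf and 209 and 481 CPM at 72 hpf. The levels at 48 hpf were below those of both other stages, and the wild-type libraries at 72 hpf differed from each other more than those of any other stage. pcna fell 5.38-fold from 24 to 48 hpf (log2 −2.43 ± 0.38, edgeR adjusted p = 0.000514). rrm1 and the 2 rrm2 IDs, the subunits of ribonucleotide reductase, fell by 1.83, 1.87 and 1.77. The 2 rrm2 IDs had close levels in every library, and how reads were split between them is uncertain.

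ccnd1 (ENSDARG00000101637), the G1 cyclin D1, held 732 and 919 CPM at 24 hpf, 75.3 and 104 CPM at 48 hpf and 99.9 and 128 CPM at 72 hpf. It fell 9.46-fold between 24 and 48 hpf (log2 −3.24 ± 0.31, edgeR adjusted p = 8.26e-06), and the 24 hpf libraries lay far above all later ones. ccne2, a cyclin E, fell by 2.86 and its kinase cdk2 by 2.10. The other cyclin E, ccne1, was not called, with 18.3 and 15.1 CPM at 24 hpf, then 9.80 and 4.83 CPM, and at 72 hpf 9.25 and 27.9 CPM, a range that took in the other stages in part.

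Of the cyclins and the kinase of G2 and mitosis, cdk1 (ENSDARG00000087554) stood at 86.1 and 121 CPM at 24 hpf against 23.9 and 13.1 at 48 hpf, and fell by 2.53 ± 0.49 (edgeR adjusted p = 0.00281). ccnb1 (ENSDARG00000051923), cyclin B1, stood at 122 and 138 CPM at 24 hpf, at 23.9 in both libraries at 48 hpf and at 33.7 and 46.8 at 72 hpf, and fell by 2.48 ± 0.48 between the first 2 stages. ccna2, cyclin A2, fell by 2.19. ccnb2 was low throughout, at 15.1 and 13.0 CPM at 24 hpf against 4.27 and 4.94 at 48 hpf, and was not called.

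All 6 mitotic kinases and checkpoint genes fell, from bub1bb (−1.75), the checkpoint protein BubR1, to aurka (−2.97 ± 0.68), the aurora kinase of the spindle poles. aurkb (ENSDARG00000037640), the aurora kinase of the chromosomal passenger complex, stood at 103 and 77.4 CPM at 24 hpf against 18.3 and 16.2 at 48 hpf. bub1, a kinase of the spindle checkpoint, stood at 201 and 227 CPM against 23.9 and 32.9 (−2.95 ± 0.46). In each of these genes the 24 hpf libraries were above all later GFP-positive ones.

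Of the 10 spindle, kinetochore and chromosome genes 9 fell, with a median of −2.39. mki67 (ENSDARG00000091150), the coat protein of mitotic chromosomes used as a marker of proliferation, held 719 and 1049 CPM at 24 hpf, 151 and 185 CPM at 48 hpf and 122 and 193 CPM at 72 hpf. It fell 5.39-fold (log2 −2.43 ± 0.32, edgeR adjusted p = 0.000123). top2a (ENSDARG00000024488), the topoisomerase that untangles sister chromosomes, stood at 618 and 608 CPM at 24 hpf against 150 in both libraries at 48 hpf. cdc20, the activator of the anaphase-promoting complex, stood at 82.9 and 81.8 CPM against 13.4 and 18.8 (−2.39 ± 0.46). The member not called in this set was birc5a, survivin, whose lower library at 24 hpf (4.45 CPM) lay below the higher one at 48 hpf (5.32 CPM).

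Over the whole interval from 24 to 72 hpf 34 IDs were lower and 0 higher, where 5.60% of all genes were called lower and 10.1% higher (15.7% in all), and the median was −1.92 in the replication group and −2.53 in the mitosis group. cdt1 fell by 4.12 ± 0.51, bub1bb by 3.34 ± 0.54 and ccne2 by 3.25 ± 0.52. pcna at −1.07 (edgeR adjusted p = 0.0617), mcm10 at −2.25 (adjusted p = 0.0502) and nusap1, a spindle microtubule protein, at −0.67 were not called over this interval but were called from 24 to 48 hpf. The 2 comparisons share the 24 hpf libraries. In a fit of the 4 compared libraries alone, 17 IDs were called lower from 24 to 72 hpf.

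Between 48 and 72 hpf 0 IDs were called by edgeR, where 0.488% of all genes were called (0.227% lower, 0.261% higher). An unadjusted p under 0.05 was reached by 4 of 43 members (9.30%), against 11.4% of all genes tested. The 4 members were pcna at 1.36 ± 0.37 (edgeR adjusted p = 0.13), mcm3 at 1.07 ± 0.31 (adjusted p = 0.174), mcm4 at 0.85 and bub1bb at −1.59. DESeq2 called 3 of them, pcna and mcm3 as higher and bub1bb as lower. Without replicate 1 of the wild-type libraries at 72 hpf, edgeR called mcm3, mcm4 and pcna as higher and birc5a as lower. That fit rests on 1 wild-type library at 72 hpf. For neither DESeq2 nor that fit is the share of all genes called given here. Replicate 2 of the wild-type libraries at 72 hpf held 481 CPM of pcna and 157 of mcm3, against 209 and 91.6 in replicate 1. Replication IDs had a median of 0.325 and mitosis IDs one of 0.0223.

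**Figure D2:**
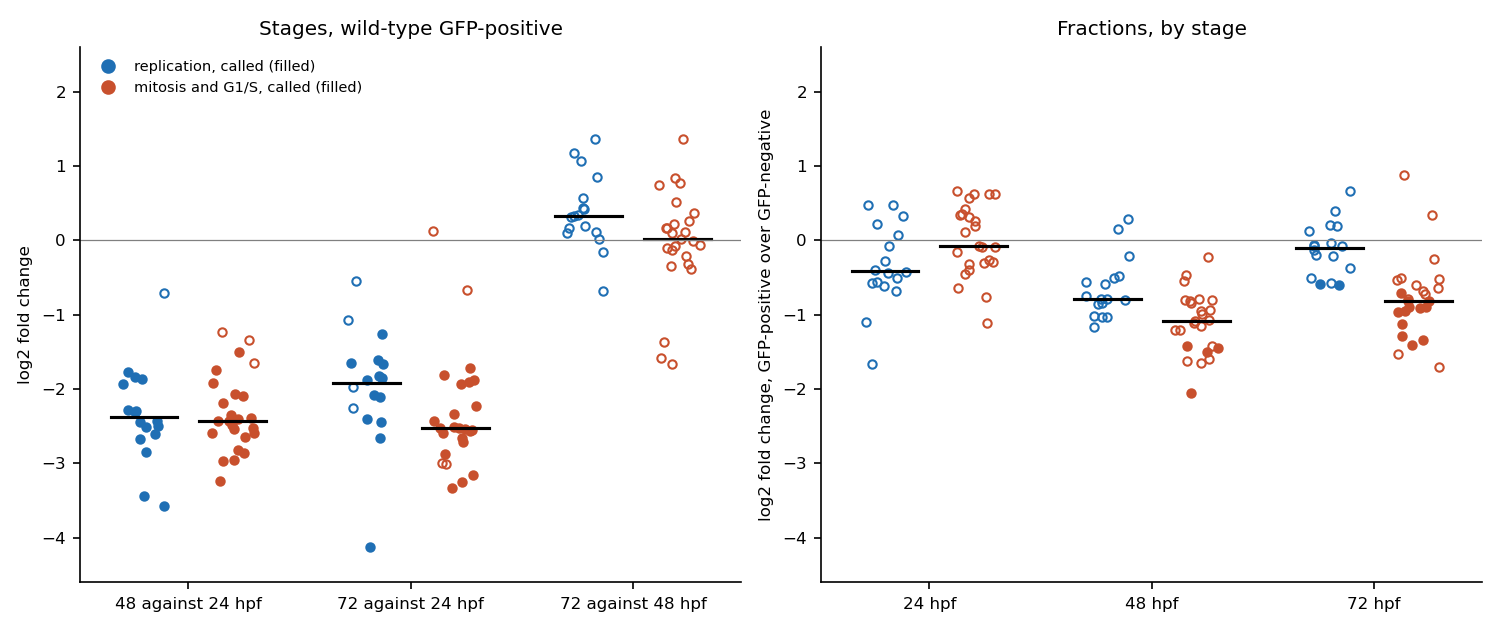
Log2 fold changes of each member between stages in wild-type GFP-positive cells (left) and of GFP-positive over GFP-negative libraries at each stage (right). Points are gene IDs of the replication group (blue) and the mitosis group (orange), filled where edgeR called them, black bars are medians over all IDs tested, and the second mcm6 ID is counted in the medians and not drawn. Both groups lie near −2.4 from 24 to 48 hpf, and at 72 hpf the mitosis group lies at −0.815 and the replication group at −0.108 between the fractions.

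The wild-type 24 hpf libraries were also set against the later libraries of all backgrounds. The gata5, tbx5 and hand2 backgrounds were sampled at 72 hpf only, so in them stage and background cannot be told apart. Both 24 hpf GFP-positive libraries lay above all 10 later GFP-positive ones in 16 of 18 replication IDs (gmnn and the second mcm6 ID apart) and in 23 of 25 mitosis IDs (ccne1 and birc5a apart), where 12.3% of all genes with a mean over 1 CPM show this order. The summed level of the replication IDs was 4227 and 4146 CPM at 24 hpf, 952 and 803 at 48 hpf and 988 to 1591 in the 8 libraries at 72 hpf. The mitosis IDs summed to 5104 and 6052 CPM at 24 hpf, 937 and 1056 at 48 hpf and 713 to 1204 at 72 hpf.

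Other transcripts moved with stage in the same libraries. Erythrocyte markers summed to 18107 and 20675 CPM in GFP-positive cells at 24 hpf and to 202 to 1379 CPM later, and endothelial markers to 2661 and 3958 CPM and then 124 to 438 CPM. Markers of xanthophores, the yellow pigment cells, went the other way, from 177 and 408 CPM at 24 hpf to 9338 to 35762 CPM later. The part of these cells in the fall of the cell cycle transcripts was not tested. The single GFP-negative libraries, which have no replicates, were also lower after 24 hpf: from 24 to 48 hpf the median log2 ratio was −1.74 over 17 replication IDs and −1.06 over 25 mitosis IDs, all 42 of them below 0, against 0.163 over all genes. Erythrocyte markers there stood at 3503 CPM at 24 hpf and at 12724 CPM at 48 hpf.

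Further genes of these pathways, from lists chosen with earlier results known, were tested in the same fit of GFP-positive cells from 24 to 48 hpf, where 4.29% of all genes fell and 9.06% rose. Of 42 IDs of the replication fork and its supply, 24 fell and 0 rose, with TK1, thymidine kinase (−3.32 ± 0.45), and RPA1, the single-strand binding protein (−3.25 ± 0.33), at the front. All 8 condensin subunits fell, with NCAPG2 at −3.09 and SMC4 at −2.82. Of 23 spindle and cytokinesis IDs 18 fell and 0 rose, among them fbxo5, an inhibitor of the anaphase-promoting complex (−3.74 ± 0.66), and espl1, separase (−3.14 ± 0.38). Of 21 kinetochore and checkpoint IDs 8 fell, with ska3 at −3.14 and knl1 at −2.95. Of 18 regulators of the RB and E2F families 9 fell, with e2f2 at −2.94 ± 0.51 and E2F4 at −2.50 ± 0.55.

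The G1 cyclins and the inhibitors did not all move that way, in the same fit where 4.29% of all genes fell and 9.06% rose. Of 12 IDs of G1 cyclins and kinases 2 fell and 1 rose. SKP2, which marks the inhibitor p27 for destruction, fell from 81.8 and 56.3 CPM to 2.17 and 4.45 (−4.42 ± 0.65, edgeR adjusted p = 0.000315), and the phosphatase cdc25b fell too (−2.11 ± 0.34). One ID of CCND2, a D-type cyclin (ENSDARG00000070408), rose from 11.8 and 14.2 CPM to 128 and 97.7 (3.08 ± 0.51, edgeR adjusted p = 0.001), while its other ID was not called (ENSDARG00000051748, edgeR adjusted p = 1). Of 17 inhibitor IDs 1 fell, WEE1, the kinase that holds back CDK1 (−2.67 ± 0.61), and 2 rose, the stress-induced GADD45A (ENSDARG00000043581, 4.91 ± 1.31) and tob1b (2.17 ± 0.42). Both inhibitor counts are near the shares of all genes. cdkn1a, the inhibitor p21, held 2.78 and 12.1 CPM at 24 hpf against 27.9 and 25.5 CPM at 48 hpf (edgeR adjusted p = 0.0881).

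The second comparison set the GFP-positive fraction against the GFP-negative one. With all conditions in 1 fit, 16 of 25 mitosis IDs and none of the licensing genes were called lower in GFP-positive cells. Of 42 IDs tested 18 were lower and 0 higher (edgeR, 12 against 6 libraries, within condition), where 16.9% of all genes were called lower and 12.4% higher (29.3% in all). The 2 replication IDs among them, of 17 tested, were both rrm2. The median log2 fold change was −0.761 in the mitosis group and −0.211 in the replication group, against −0.256 over all genes. No test between these groups of genes was made.

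By role, 9 of 10 spindle, kinetochore and chromosome genes were lower, 3 of 6 mitotic kinases and checkpoint genes, and 0 of 13 licensing and origin IDs. Of the 4 cyclins and kinase of S phase, G2 and mitosis only 1 was called lower, ccna2. cdk1, ccnb1 and ccnb2 were not called, and the median of the 4 was −0.723. cenpf, a centromere protein of late G2, stood at 28.3 to 76.3 CPM in the 10 GFP-positive libraries at 48 and 72 hpf and at 77.7 to 261 CPM in the 5 GFP-negative ones, with no overlap. Its log2 fold change over all conditions was −1.31 ± 0.20 (edgeR adjusted p = 0.000161). mki67 stood at 72.4 to 193 CPM in those 10 libraries against 215 to 469 CPM (−1.14 ± 0.17, adjusted p = 0.000137). top2a (−0.88 ± 0.14), ccna2 (−0.92 ± 0.21) and bub1 (−0.93 ± 0.24) were lower by the same test.

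Neither a subunit of the MCM ring nor pcna was called. mcm2 had a log2 fold change of −0.21 (95% interval −0.54 to 0.11), mcm5 one of −0.39 (−0.77 to −0.02, edgeR adjusted p = 0.109) and mcm3 one of −0.01 (−0.44 to 0.42). pcna stood at −0.02 (−0.45 to 0.41), and at −0.46 with total counts in place of TMM. These intervals do not show that the fractions hold equal levels. Of the genes of G1 and S phase entry, ccnd1 (−0.83 ± 0.20) and ccne2 (−0.72 ± 0.25) were lower, and cdk2 (0.28 ± 0.23) and ccne1 (0.26 ± 0.37) were not called.

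Scaling by total counts moved the median of all genes from −0.256 to −0.713 and the calls over all genes from 3664 lower and 2699 higher to 6196 lower and 1533 higher. With that scaling 21 mitosis and 9 replication IDs were called lower, with medians of −1.22 and −0.658. In wild-type libraries alone edgeR called 0 members, with medians of −0.813 and −0.551. There 19 members reached an unadjusted p under 0.05, a count not set against the share of all genes in that fit. Over all conditions an unadjusted p under 0.05 was reached by 23 of 42 members (54.8%), against 39.8% of all genes. Without the 48 hpf GFP-negative library 11 members were called. Without the gata5 GFP-positive replicate 2, whose cardiomyocyte markers were low, 19 were.

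Neural markers were also higher in the GFP-negative libraries (813 to 2066 CPM against 87.0 to 656), and xanthophore markers higher in GFP-positive libraries from 48 hpf on (9338 to 35762 CPM against 62.2 to 105). By the test over all conditions 6 of 9 erythrocyte marker IDs were lower in GFP-positive cells, the direction of the called mitotic genes. In GFP-positive libraries these markers summed to 202 to 1190 CPM at 72 hpf, against 1000 to 3827 CPM in GFP-negative ones. At 48 hpf they summed to 1064 and 1379 CPM against 12724 CPM. At 24 hpf the order was the other way, with 18107 and 20675 CPM in GFP-positive cells against 3503 CPM. Leukocyte markers were at 303 to 3132 CPM in GFP-positive libraries and 122 to 261 CPM in GFP-negative ones. The part of these cells in the difference between the fractions was not tested.

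**Figure D3:**
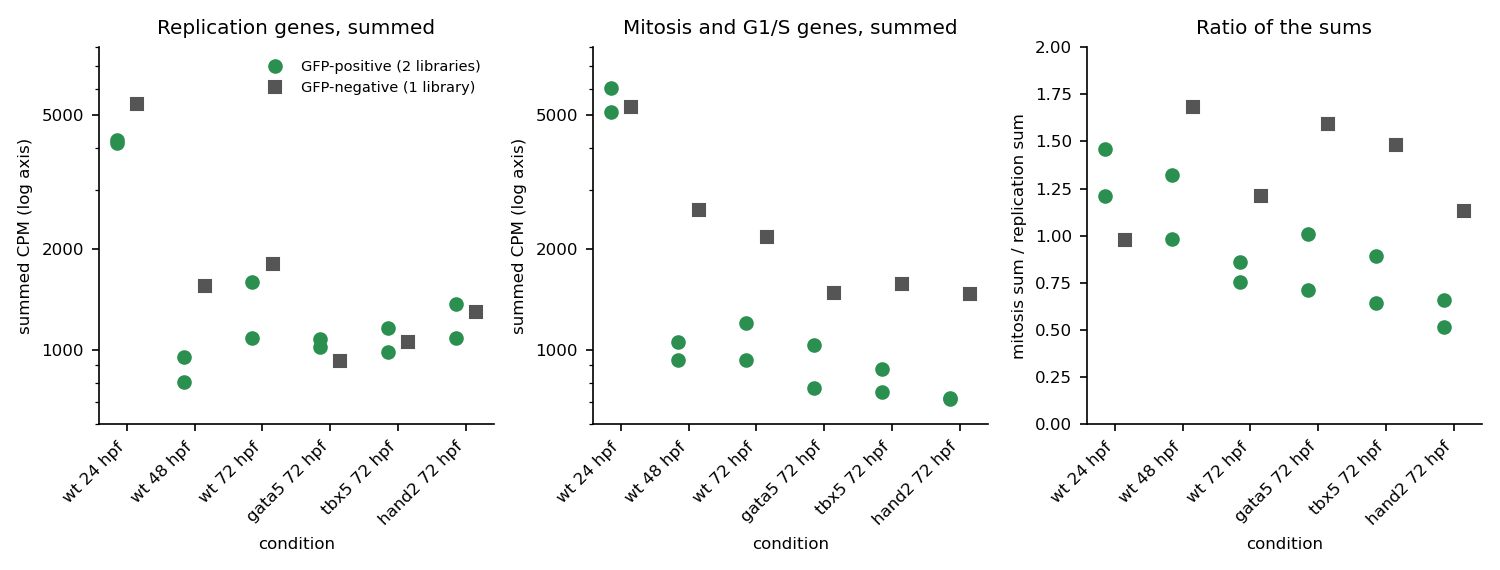
Summed CPM of the 18 replication IDs (left, log axis), of the 25 mitosis IDs (middle, log axis) and the ratio of the sums (right) in each library, with 2 GFP-positive libraries (circles) and 1 GFP-negative library (squares) in each condition. At 72 hpf the fractions overlap in the replication sum (988 to 1591 against 930 to 1804 CPM) and not in the mitosis sum (713 to 1204 against 1470 to 2175 CPM).

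The fractions were then compared stage by stage. At 24 hpf edgeR called 0 members (2 against 1 library), where 2.64% of all genes were called (2.17% lower, 0.470% higher). An unadjusted p under 0.05 was reached by 1 of 43 members (2.33%), against 12.6% of all genes tested. DESeq2 called rrm1 as lower, and the share of all genes called by DESeq2 is not given here. The interval of each difference is wide with 1 GFP-negative library. mki67 stood at 719 and 1049 CPM in GFP-positive cells and at 943 in GFP-negative cells, and cenpf at 250 and 491 CPM against 426. ccnd1, at 732 and 919 CPM, was above the GFP-negative 510 CPM (0.63 ± 0.36, edgeR adjusted p = 0.54). rrm1, at 271 and 329 CPM, was below the GFP-negative 611 CPM (−1.09 ± 0.34, edgeR adjusted p = 0.0979).

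At 48 hpf 4 members were lower in GFP-positive cells and 0 higher, where 0.789% of all genes were called lower and 2.67% higher (3.46% in all). They were cenpf (−2.05 ± 0.40), kif11, the motor that separates the spindle poles (−1.50 ± 0.37), ccnd1 (−1.44 ± 0.34) and mki67 (−1.42 ± 0.35). kif11 stood at 42.1 and 48.9 CPM against 134 in GFP-negative cells. ccnd1 stood at 75.3 and 104 CPM against 254, on the other side of the GFP-negative level than at 24 hpf. The medians were −1.09 in the mitosis group and −0.785 in the replication group. Leaving out a 48 hpf GFP-positive library left 0 calls (without replicate 1) or 2 (without replicate 2), and leaving out wild-type replicate 2 at 72 hpf gave 7.

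At 72 hpf, with 8 against 4 libraries of 4 backgrounds, 14 members were lower and 0 higher, where 11.0% of all genes were called lower and 9.41% higher (20.4% in all). They were 12 of 25 mitosis IDs and the 2 rrm2 IDs, with a median of −0.815 in the mitosis group, −0.108 in the replication group and −0.307 over all genes. bub1bb stood at 3.98 to 12.4 CPM in the 8 GFP-positive libraries, all below the 14.5 to 32.0 CPM of the 4 GFP-negative ones (−1.41 ± 0.32, edgeR adjusted p = 0.00324). cenpf was lower by 1.34 ± 0.20 on the log2 scale and mki67 by 1.28 ± 0.18. All 8 GFP-positive libraries lay below all 4 GFP-negative ones in 9 of 25 mitosis IDs (mki67, ccnd1, ccne2, ccnb2, top2a, bub1, bub1bb, cenpf and cenpe) and in 0 of 18 replication IDs, where 10.3% of all genes with a mean over 1 CPM show this order.

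Some members had higher values in GFP-positive cells at 72 hpf without passing the test. ccne1 alone stood higher in all 8 GFP-positive libraries (9.25 to 27.9 CPM) than in the 4 GFP-negative ones (4.91 to 8.46 CPM), an order that 8.25% of all genes show, with a log2 fold change of 0.89 ± 0.42 (edgeR adjusted p = 0.15). orc1 stood at 8.02 to 24.9 CPM against 9.40 to 14.6 (0.67 ± 0.33, adjusted p = 0.163) and mcm3 at 78.3 to 158 CPM against 66.2 to 116 (0.40 ± 0.19, adjusted p = 0.15). The count of 14 came to 8 without the wild-type or without the tbx5 GFP-negative library, and to 15 without gata5 GFP-positive replicate 2. A fit of 12 separate groups gave 3. In that fit the effect at 72 hpf was that of wild type alone, with fewer libraries, so its count measures another effect than the 14. pcna was at 0.20 ± 0.23 and turned to −0.32 with total counts in place of TMM, a scaling that moved the median of all genes at this stage to −0.831 and called 21 mitosis and 8 replication IDs lower.

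The ratio of the mitosis sum to the replication sum shows the same members within each library. At 72 hpf it was 0.518 to 1.01 in the 8 GFP-positive libraries and 1.13 to 1.59 in the 4 GFP-negative ones, with no overlap. At 48 hpf it was 0.984 and 1.32 against 1.68. At 24 hpf the order was the other way, with 1.21 and 1.46 in GFP-positive cells and 0.978 in GFP-negative cells. Within each background at 72 hpf the median log2 ratio of the fractions was lower over the mitosis IDs (wild type −0.917, gata5 −0.388, tbx5 −0.978, hand2 −0.985) than over the replication IDs (−0.403, 0.0522, 0.0509 and −0.0388 in that order). These sums are descriptions of the listed genes and were not tested.

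Whether the fractions changed unlike each other with stage was tested by the difference of the GFP effects. Only ccnd1 was called, in both differences: its GFP effect was lower at 48 hpf than at 24 hpf by 2.07 ± 0.50 on the log2 scale (−2.07, edgeR adjusted p = 0.0358) and lower at 72 hpf than at 24 hpf (−1.59 ± 0.41, adjusted p = 0.0374). Of all genes, 1.75% were called in the first difference (0.243% lower, 1.51% higher) and 3.01% in the second (0.539% lower, 2.47% higher), and both use the same 24 hpf libraries. mki67 had differences of −1.26 ± 0.52 and −1.12 ± 0.42 (adjusted p = 0.397 and 0.223) and cenpf of −1.78 ± 0.59 and −1.07 ± 0.48, none called, although both genes were called at 48 and 72 hpf and not at 24 hpf. Both ccnd1 calls were lost, leaving 0 members lower, without wild-type GFP-positive replicate 2 at 24 hpf, without tbx5 GFP-positive replicate 1 or without hand2 GFP-positive replicate 2. The 48 hpf difference was also lost without GFP-positive replicate 1 at 48 hpf, and the 72 hpf difference without the wild-type, gata5 or hand2 GFP-negative library or hand2 GFP-positive replicate 1. Without GFP-positive replicate 1 at 24 hpf 2 members were called lower at 48 hpf, ccnd1 and cenpf.

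**Figure D4:**
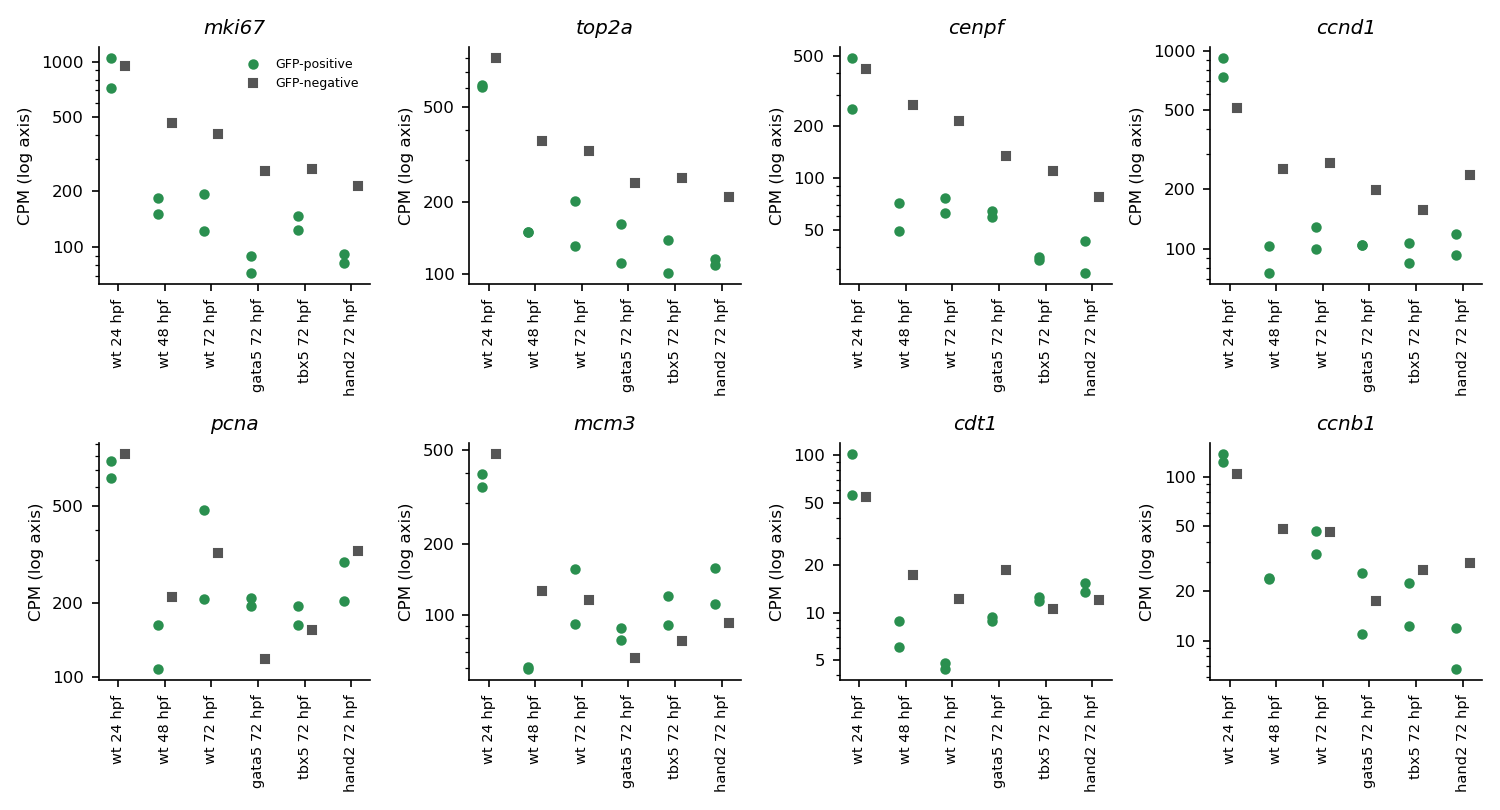
Levels of 8 genes in CPM (log axes that differ between panels) in each library, with GFP-positive libraries as circles and the GFP-negative library of each condition as a square. In mki67, top2a, cenpf and ccnd1 the squares lie above the circles in every condition from 48 hpf on, and in pcna, mcm3 and cdt1 they lie above in some and below in others.

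The further pathway genes were compared between the fractions over all conditions in the same way, against 16.9% of all genes called lower and 12.4% higher. Of 42 replication fork IDs 0 were called in either direction by edgeR, with a median of −0.241. Of 23 spindle and cytokinesis IDs 12 were lower and 0 higher, with a median of −0.822, among them hmmr, a spindle protein (−1.31 ± 0.32), and fbxo5 (−1.28 ± 0.41). Condensin subunits were lower in 4 of 8, with NCAPG at −0.80 and NCAPD3 at −0.73. Of 21 kinetochore IDs 3 were lower, a share no higher than that of all genes, with knl1 at −1.30 and sgo1, the protector of centromeric cohesion, at −1.07. The median over all genes was −0.256.

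The G1 regulators and inhibitors are read against the same shares of all genes (12.4% higher, 16.9% lower). Of 10 G1 cyclin and kinase IDs tested 2 were higher and 0 lower. In both small lists the share called higher was above that of all genes, and neither list was tested as a set. The CCND2 ID that rose with stage was higher (2.52 ± 0.49, edgeR adjusted p = 0.00143), at 60.7 to 193 CPM in the 8 GFP-positive libraries at 72 hpf against 12.7 to 31.0 in the GFP-negative ones. CDK4, the kinase partner of D-type cyclins, was higher by 1.01 ± 0.27. Of 17 inhibitor IDs 4 were higher, among them cdkn1a (1.77 ± 0.41) and GADD45A (2.33 ± 0.68 for ENSDARG00000043581), and 1 was lower, cdkn1ca, the inhibitor p57 (−1.45 ± 0.30). At 72 hpf alone 2 of 18 inhibitor IDs were lower and 2 higher. These counts are close to the shares of all genes at that stage, 11.0% lower and 9.41% higher. Of 18 RB and E2F family IDs 3 were lower over all conditions, a share close to that of all genes, with tfdp2 at −1.19 ± 0.23.

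The third set of comparisons asked whether the gata5, tbx5 and hand2 backgrounds differed from wild type in GFP-positive cells at 72 hpf, each with 2 against 2 libraries and all sharing the wild-type ones. edgeR called 0 members in each, where 0.105% of all genes were called in gata5 (0.0295% lower, 0.0757% higher), 0.0463% in tbx5 (0.00421% lower, 0.0421% higher) and 0.0505% in hand2 (0.0168% lower, 0.0337% higher). An unadjusted p under 0.05 was reached by 4, 5 and 9 of 43 members (9.30%, 11.6% and 20.9%), against 9.64%, 8.34% and 9.09% of all genes tested. DESeq2 called 0, 0 and 2 members. The share of all genes called is not given here for DESeq2, nor for the fit below that left 1 wild-type library. The 95% intervals of the members had median widths of 1.86, 1.87 and 1.87 on the log2 scale, so these libraries leave room for sizeable differences in a typical member. Without wild-type replicate 1, edgeR called birc5a higher in gata5, pcna lower in tbx5, and ccnb1 lower and birc5a higher in hand2.

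cdt1 and ccnb1 were the members that reached an unadjusted p under 0.05 in all 3 backgrounds. cdt1 held 4.81 and 4.39 CPM in wild type, 8.80 and 9.40 CPM in gata5, 11.9 and 12.5 CPM in tbx5 and 13.6 and 15.4 CPM in hand2. All 6 libraries of the other backgrounds lay above both wild-type ones, which were also the lowest of all 18 libraries, with log2 fold changes of 0.99 ± 0.46, 1.39 ± 0.46 and 1.64 ± 0.46 (edgeR adjusted p = 0.518, 0.441 and 0.252). ccnb1 held 33.7 and 46.8 CPM in wild type, 25.9 and 11.0 CPM in gata5, 12.2 and 22.4 CPM in tbx5 and 6.69 and 11.9 CPM in hand2. Both wild-type libraries lay above the other 6, with −1.11 ± 0.46, −1.24 ± 0.46 and −2.13 ± 0.47 (adjusted p = 0.472, 0.502 and 0.142). These 2 genes were chosen after their values were seen, and the share of all genes with such an order was not counted.

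In hand2, cdc20 stood at 10.2 and 6.66 CPM against 17.2 and 28.5 in wild type (−1.45 ± 0.45, edgeR adjusted p = 0.316), and nusap1 at 12.8 and 12.6 CPM against 29.0 and 42.2 (−1.50 ± 0.43, adjusted p = 0.272). DESeq2 called ccnb1 and nusap1 as lower. The hand2 medians were −0.524 in the mitosis group and −0.00297 in the replication group, against 0.084 over all genes. mki67 stood at 92.1 and 82.5 CPM in hand2, at 89.8 and 72.4 in gata5 and at 148 and 124 in tbx5, against 122 and 193 in wild type.

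The other members named by rule were compared background by background. ccnd1 stood at 85.1 to 119 CPM in the 6 libraries against 99.9 and 128, with differences of −0.12, −0.27 and −0.12. The ccnd1 libraries of each background overlapped those of wild type. mcm5 stood at 79.6 to 126 CPM against 86.6 and 82.0 (−0.07, 0.34 and 0.40), with both gata5 libraries below and both libraries of tbx5 and of hand2 above the wild-type pair. top2a stood at 101 to 163 CPM against 132 and 202 (−0.27, −0.49 and −0.58), and both hand2 libraries (109 and 116 CPM) lay below wild type. pcna stood at 163 to 295 CPM against 209 and 481, with all 6 below the second wild-type library and both tbx5 libraries (163 and 194 CPM) below the first as well. aurkb stood at 8.40 to 25.6 CPM against 20.3 and 11.4, and both hand2 libraries (8.45 and 9.82 CPM) lay below wild type. cdk1 stood at 10.6 to 25.3 CPM against 15.4 and 19.5, and each background overlapped wild type. None of these differences was called, and the share of all genes with such orders of libraries was not counted.

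**Figure D5:**
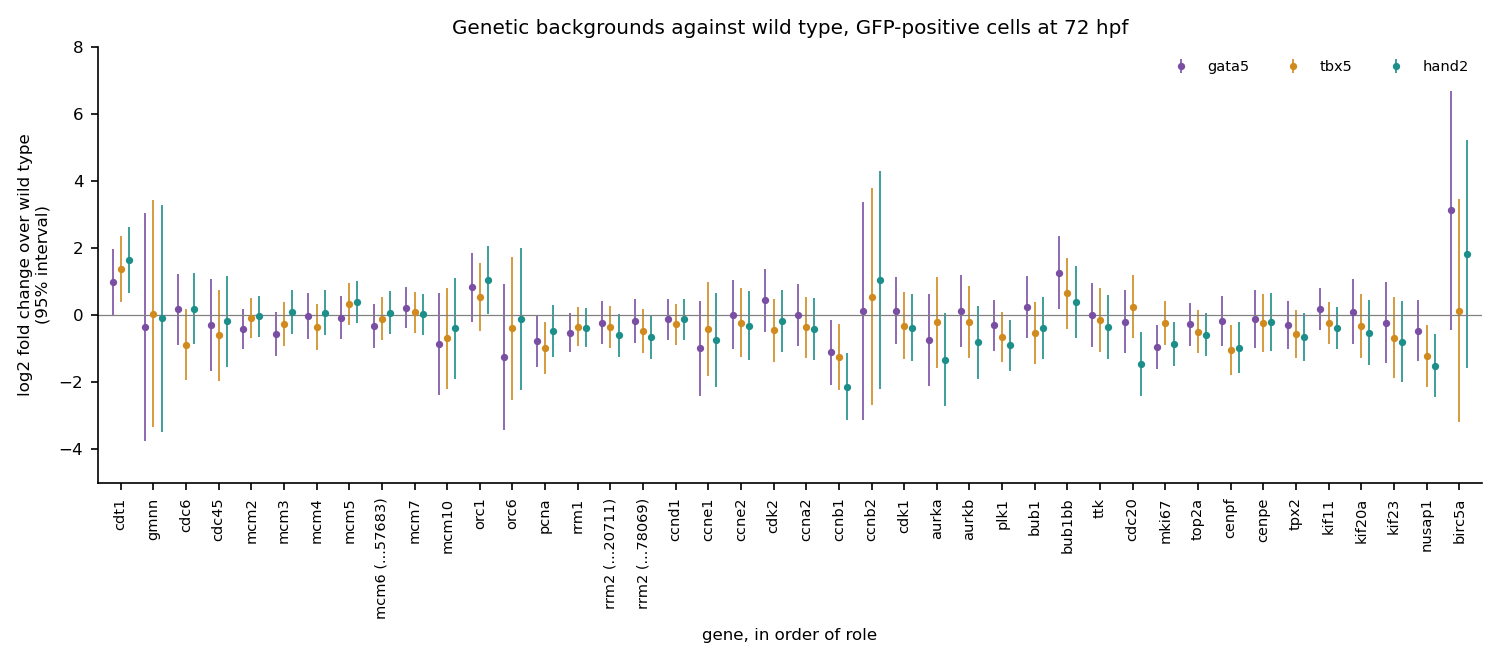
Log2 fold changes of the gata5, tbx5 and hand2 backgrounds over wild type in GFP-positive cells at 72 hpf for each member in order of role, with 95% intervals from edgeR. The points of cdt1 lie above 0 and those of ccnb1 below 0 in all 3 backgrounds, 0 members pass the adjusted threshold, and the second mcm6 ID is left out.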

How the data were processed

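The authors deposited raw counts, whole numbers for each Ensembl gene, and a log2 table labelled rld, the usual short name of a regularized log. STAR 2.5, Trimmomatic 0.36, SAMtools 1.4, DESeq2 and GRCz10 are named, without roles, in the submitters' processing notes. How reads were assigned to genes, with which annotation and strand, is not given in the sources used here, so reads of paralogs and overlapping genes cannot be assigned with certainty. Per the labels, total RNA was made into libraries with a SMARTer low input kit.

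Tests ran on the counts in edgeR 4.0.16 under R 4.3.3 (TMM, filterByExpr with minimum count 10 and minimum total 15, robust quasi-likelihood F test, two-sided, Benjamini-Hochberg adjustment over all genes, called under 0.05). For stages and backgrounds the fit held 12 GFP-positive libraries in 6 groups (23767 genes, 6 residual degrees of freedom). The fractions were compared within condition over 18 libraries (21729 genes, 11 degrees of freedom), and by stage with 1 GFP effect per stage (26357 genes, 9 degrees of freedom). SE is the log2 fold change divided by the square root of F. Of 43 member IDs, 43, 42 and 43 passed the filters of these fits. Ratios of single libraries used a pseudocount of 0.5 CPM.

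Alternatives used other scalings and filters, DESeq2 1.42.0, limma 3.58.1 on the deposited log2 values, fewer libraries and a replicate block, and 1, without the 24 hpf libraries, was chosen after seeing the data. Scripts were tested on simulated data. The members and gene lists were chosen with earlier results of these data known. Symbols came from a reference table that names 24555 of 28298 IDs. 8 members (mki67, ccnd1, pcna, mcm5, cdk1, top2a, ccnb1, aurkb) and the 3 called members with the largest change per group and direction are named by rule, and from each pathway list the 2 called genes with the largest change per direction. Others are named to account for the members and were chosen after their values were seen. Floors of 3 counts cover counting error only.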

Additional observations from a re-analysis of the deposited data

Results flagged for a closer look

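The difference between the GFP-positive and GFP-negative fractions in ccnd1, cyclin D1, differed between stages by a test of the difference itself, in a call that rests on single libraries. Its GFP effect at 48 hpf minus that at 24 hpf was −2.07 ± 0.50 (edgeR adjusted p = 0.0358), and that at 72 hpf minus that at 24 hpf was −1.59 ± 0.41 (edgeR adjusted p = 0.0374). At 24 hpf both GFP-positive libraries (732 and 919 CPM) lay above the GFP-negative library (510 CPM). At 48 and 72 hpf all 10 GFP-positive libraries (75.3 to 128 CPM) lay below all 5 GFP-negative ones (156 to 270 CPM). Of all genes 1.75% and 3.01% were called in these differences. One ID of CCND2, another D-type cyclin (ENSDARG00000070408), went the other way in the first (4.03 ± 0.95). Leaving out 1 library at a time left 0 to 2 members called lower in the first and 0 to 1 in the second. With 12 groups, where the 72 hpf effect was that of wild type alone, the second gave 0. The 24 hpf side of both differences rests on the same 2 GFP-positive libraries and 1 GFP-negative library.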

How the results depend on the processing

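No member named by rule changed sign where it was called. gmnn, which is not among them, did reverse in a smaller fit described below. Counts of members called lower that moved by over 1.5 times were, from 24 to 72 hpf, 17 with only the 2 groups compared (34 as reported); in the GFP comparison (18 as reported) 30 with total counts in place of TMM, 11 with the replicate block and 0 with wild-type libraries only; at 24 hpf (0 as reported) 1 with DESeq2; at 48 hpf (4 as reported) 7 with RLE size factors, 17 with total counts, 7 with no filter and 9 with DESeq2; at 72 hpf (14 as reported) 29 with total counts, 8 with the replicate block and 3 with 12 groups. From 48 to 72 hpf (0 and 0 as reported) DESeq2 called 1 lower and 2 higher, and no filter gave 1 higher. In hand2 (0 as reported) no filter gave 1 lower and DESeq2 2. For the GFP effect at 72 hpf minus that at 24 hpf (1 as reported) DESeq2 gave 2 and 12 groups gave 0. The cause was not tested in these cases, and the smaller fits also held fewer libraries. These are counts of members, and for most of these alternatives the calls over all genes are not given here. With 12 groups the GFP effect at 72 hpf was that of wild type alone, and not the effect shared by the 4 backgrounds. All GFP-negative libraries are replicate 1. With the replicate block the GFP effects therefore compared them with GFP-positive replicate 1 only.

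Leaving out 1 library at a time gave 30 to 33 members lower from 24 to 48 hpf, 31 to 32 from 24 to 72 hpf and 0 to 1 from 48 to 72 hpf. The GFP comparison gave 11 to 20, and the GFP effect 0 to 1 at 24 hpf, 0 to 7 at 48 hpf and 8 to 20 at 72 hpf. The differences of GFP effects gave 0 to 2 (48 minus 24 hpf) and 0 to 1 (72 minus 24 hpf). The gata5, tbx5 and hand2 comparisons gave 0 to 0, 0 to 1 and 0 to 1. Members called higher were 0 to 1 from 24 to 48 hpf, from 24 to 72 hpf, in gata5, in hand2 and in both differences, 0 to 3 from 48 to 72 hpf, and 0 to 0 in tbx5 and the other GFP comparisons. The 1 higher from 24 hpf was gmnn without replicate 1 at 24 hpf.

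The 15 correlations between GFP-positive groups of replicate deviations ran from −0.0543 to 0.0459, with 0 over 0.1. No deviation shared by replicate number was seen between these groups. The GFP-negative libraries, which have no replicates, were not covered. With the replicate block 37 members were lower from 24 to 48 hpf and 33 from 24 to 72 hpf. For the members named by rule in each comparison, 2056 values over all settings kept their direction and side of the threshold. Of their other values 52 lost it, 35 gained it and 43 uncalled ones moved. Members not named by rule were left out of these totals. Depth limits the second mcm6 ID, which held 0 to 40 counts in the wild-type GFP-positive libraries. gmnn held 227 counts in one 24 hpf library and 0 in the other.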
